A study of Mus musculus with 51 samples.

Results

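The genes described here are the replication-dependent histone genes of the mouse, taken as every gene whose symbol follows the pattern of the clustered H1, H2A, H2B, H3 or H4 genes (H1f1 to H1f5, and H2ac, H2bc, H3c or H4c with a number). A gene was kept when it reached an expected count of at least 10 in at least 2 of the 51 libraries. The pattern found 56 of the 40077 genes in the table and 53 were kept: 5 H1, 13 H2A, 13 H2B, 12 H3 and 10 H4 genes. The 3 genes left out were H2bc1, H2ac1 and H2ac14, whose highest expected counts in any library were 2.32, 2 and 9.59. Of the members kept, H2bc11 reached this count in the fewest libraries, 49, followed by H2ac19 and H2bc13 in 50. None was near the limit of 2 libraries. All 53 passed the count filter of every comparison. In the mm10 build, 43 members lay on chromosome 13 between positions 21715763 and 23764406, and the other 10 lay on chromosome 3 within 50.268 kb.

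Histone H2A, H2B, H3 and H4 proteins form the core around which DNA is wrapped, and H1 is the linker histone that binds where the DNA enters and leaves it. The clustered genes supply the bulk of these proteins when DNA is copied, so their RNA accumulates in S phase and is removed when replication ends. Most of their transcripts are not polyadenylated. They end shortly after a short hairpin, the histone stem-loop, which is bound by SLBP (stem-loop binding protein). UBA1, the enzyme that the study manipulated, activates ubiquitin at the start of the ubiquitin conjugation cascade, and TAK-243 is a compound that blocks this activation step.

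RNA was sequenced from cultured Myc-CaP cells (16 libraries) and from subcutaneous tumors (35 libraries) of Myc-CaP, a prostate cancer line from FVB mice, or B16-BL6, a melanoma line from C57BL/6 mice. In cells, one experiment crossed TAK-243 (50 nmol/L, 18 hours) with IFN-γ (1 ng/mL, 18 hours), and the other crossed a guide against Uba1 (sgUba1) with IFN-γ, its controls carrying a non-targeting guide (sgNC). Each of these 8 groups had 2 libraries. In tumors, 3 B16-BL6 sgNC tumors were set against 4 sgUba1 tumors, 3 Myc-CaP sgNC tumors against 7 labelled sgUba1, 3 Myc-CaP tumors with an empty vector (EV) against 4 that overexpress Uba1 (OE), and 6 vehicle-treated Myc-CaP tumors against 5 from mice given TAK-243 at 25 mg/kg. The Myc-CaP hosts were male FVB mice and the B16-BL6 hosts female C57BL/6 mice, 6 to 8 weeks old and immunocompetent. The edited sublines were grown from single cells and reduce Uba1 only in part, the overexpression was driven by a viral promoter from a lentivirus selected with blasticidin, and tumors were placed on both flanks, so that some may share a mouse. The labels do not say which cultures were separate, so p-values measure the spread between these libraries only.

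Total expected counts ran from 8651963 to 38032284 per library, the lowest in the EV and OE tumors. Markers of the 2 lines went with their labels: the summed level of 5 melanocyte genes was 11410 to 14670 CPM (counts scaled to a library total of 1000000) in B16-BL6 tumors and at most 5.5 elsewhere, and that of 4 prostate genes was 1202 to 4483 in Myc-CaP libraries and at most 1.12 in B16-BL6. Uba1 was lower in both B16-BL6 sgUba1 tumors (log2 fold change −0.92, adjusted p = 0.000294) and sgUba1 cells (−0.87, adjusted p = 3.71e-07), and higher in OE tumors (1.27, adjusted p = 0.00503). In the Myc-CaP tumors labelled sgUba1, 3 tumors (replicates 1 to 3) held 211 to 222 CPM of Uba1, below the 303 to 334 of the sgNC tumors, but the other 4 held 337 to 382, not below the controls. The study used more than one guide against Uba1, the labels do not say which guide a tumor carried, and the files hold no protein level. Results on this group are given with and without these 4. The sources differ on the library preparation, which bears on RNA without a poly-A tail: the labels describe selection on oligo(dT) beads, whereas the study's methods name a kit that removes ribosomal RNA. Rmrp and Terc, which carry no poly-A tail, were detected in the libraries.

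The histone stem-loop is shown first because it is the sequence that sets these transcripts apart from other mRNA. It was searched in the GENCODE M21 transcripts after the coding part, as a perfect 6-base stem around a 4-base loop with at least 2 T, and was found in 37 of the 53 members. Capitals mark the stem and lower case the loop. The commonest form was carried by 21 members, among them H1f4, H2ac18 and H3c15, the form after it by 5 H2B and H3 members, and the next 3 by H4 members only (4, 2 and 2).
H1f4, H2ac18, H3c15: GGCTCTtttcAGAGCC
H2bc12, H3c3: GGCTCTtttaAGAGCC
H4c3, H4c4, H4c6, H4c8: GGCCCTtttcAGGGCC
H4c9, H4c14: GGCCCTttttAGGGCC
H4c2, H4c11: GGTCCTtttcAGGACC
H4c1: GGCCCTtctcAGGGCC
Of the 16 members without a match, 12 have transcript models that stop within 16 bases of the coding part, so the letters could not be looked for. The other 4 models go on past it without a match: H2bc21 for 2192 bases, H2bc4 for 742, H1f1 for 48 and H3c13 for 37. The model of H3c13 is too short to hold a 16-base hairpin where H3c15 has its own, from base 31. The coding parts of H3c13 and H3c15 are 99.76% identical. The models of H2bc21 and H2bc4 hold AATAAA, the signal for a poly-A tail, in the stretch after the coding part. So do models of several members with the hairpin, among them H1f3, H2ac6 and H4c14.

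Promoters were taken from RefSeq (GRCm38.p6) as 250 bases before to 50 after the start of transcription, and 48 members had one. CCAAT, read on both strands, stood in 87.5% of the members' windows against 37.4% of 32851 promoters of the same length. TATAAA stood in 58.3% against 13.6%. TTTGCAT, the octamer-like motif known from H2B promoters, stood in 22.9% against 4.63%, in 5 of 11 H2B and 5 of 13 H2A windows and in no H1 or H3 window. CCAAT was found in every H1, H2A, H2B and H3 window but in only 3 of 9 H4 windows. A match is a description of the letters and not a bound site. The 250 bases upstream of 3 highly expressed members of different classes are shown, with CCAAT (or ATTGG, its other strand), TATAAA and TTTGCAT in capitals. H1f4 and H4c4 hold CCAAT and TATAAA, whereas H2bc18 holds CCAAT and TTTGCAT. H4c4 is among the 3 of 9 H4 windows with CCAAT, so it does not stand for most H4 windows.
H1f4, chr13:23622559-23622808, minus strand: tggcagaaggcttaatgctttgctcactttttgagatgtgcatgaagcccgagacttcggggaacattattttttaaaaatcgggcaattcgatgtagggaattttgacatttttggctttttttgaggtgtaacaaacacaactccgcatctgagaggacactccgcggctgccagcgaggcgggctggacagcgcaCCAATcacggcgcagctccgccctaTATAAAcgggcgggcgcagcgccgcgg
H2bc18, chr3:96269450-96269699, plus strand: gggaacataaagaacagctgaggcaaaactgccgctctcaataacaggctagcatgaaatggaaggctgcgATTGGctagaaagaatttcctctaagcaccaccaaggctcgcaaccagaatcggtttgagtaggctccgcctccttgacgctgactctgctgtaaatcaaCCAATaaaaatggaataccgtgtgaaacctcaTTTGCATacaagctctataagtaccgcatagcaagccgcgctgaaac
H4c4, chr13:23581318-23581567, plus strand: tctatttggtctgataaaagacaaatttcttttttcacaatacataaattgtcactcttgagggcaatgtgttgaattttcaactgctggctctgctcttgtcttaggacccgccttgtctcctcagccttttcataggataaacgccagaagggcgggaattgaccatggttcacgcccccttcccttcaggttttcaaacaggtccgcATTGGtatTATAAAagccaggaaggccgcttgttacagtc

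Because the members are near-copies, reads can be shared between them. The median over members of the share of a transcript's 31-base words that occur in no other transcript was 39.8%, with 10 members under 10% and 19 above 50%. H2ac18, H2ac19, H2bc18, H3c13 and H3c14 had none, so their separate levels rest on how the counting tool divided shared reads, and H2ac18 and H2ac19 have identical coding sequences. H4c4 (85.3%), H1f5 (96.1%), H2bc21 (97.2%), H4c14 (97.4%) and H1f1 (99.7%) are among the members read mostly from sequence of their own. Sums over a class do not depend on division within it.

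The 53 members together took a larger share of the library in cultured cells than in Myc-CaP tumors. In cells without any agent they summed to 11246 and 10888 CPM in the controls of the TAK-243 experiment and to 13995 and 12175 in sgNC cells. In the 28 Myc-CaP tumors the sum ran from 1125 to 5706, with a median of 3168, and in the 7 B16-BL6 tumors from 7565 to 10969. H4 genes had the largest class sum in control cells (2970 ± 67.9 CPM, SD, n = 2), followed by H2B (2540 ± 13.03), H3 (2040 ± 81.2), H1 (1945 ± 30.2) and H2A (1572 ± 60.9). The gap between H3 and H1 was the narrowest and little larger than the SD of H3. On the TPM scale, which divides by transcript length, the highest member in control cells was H2bc18 (5218 ± 37.8, n = 2), followed by H4c12 (4056 ± 179). The lowest was H2bc21 (3.70 ± 0.063).

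**Figure D1:**
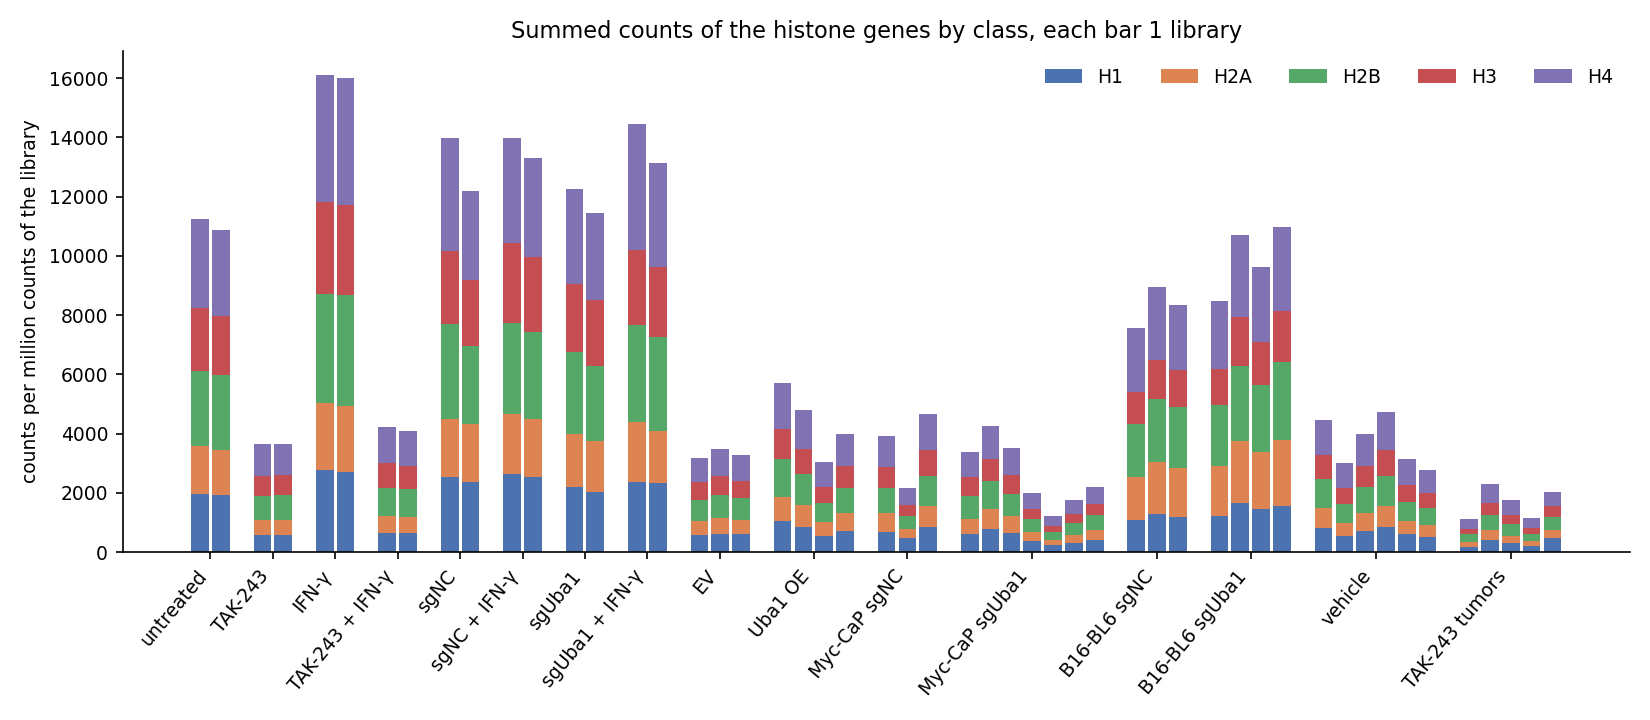
Stacked bars give, for each of the 51 libraries, the summed CPM of the H1, H2A, H2B, H3 and H4 members, with libraries ordered by group. The 4 cell libraries given TAK-243 reach 3635 to 4222 CPM and the other cell libraries 10888 to 16121, and the 5 TAK-243-treated tumors (1125 to 2308) stand below the 6 vehicle tumors (2781 to 4735).

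TAK-243 in cultured cells was tested first, to see how the histone genes stood after direct inhibition of the enzyme. All 53 members fell (edgeR's quasi-likelihood test, adjusted p under 0.05 over all genes), where 34% of the 14551 genes tested were lower. The median change of the members was a log2 fold change of −1.52, a 2.87-fold lower level, against 0.03 for all genes. The sum of all members went from 11246 and 10888 CPM in the controls to 3635 and 3660. Every member lay below both controls in both treated libraries, which 36.3% of 19836 genes did.

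The linker histone genes had the lowest class sum relative to control (log2 fold change −1.66 ± 0.03, SE). H1f4, a linker histone with the commonest stem-loop, which H1f2 and H1f3 also carry, stood at 535 and 519 CPM in control cells and at 172 and 165 after TAK-243 (−1.53 ± 0.03, adjusted p = 1.77e-25). H1f3 and H1f5 fell further (both −2.13 ± 0.04), as did H3c13 (−2.36 ± 0.06) and H2bc9 (−2.05 ± 0.05) among the core genes. The core classes followed within a narrow range, H2A at −1.52, H2B at −1.49, H3 at −1.47 and H4 at −1.37 (SE 0.03 for each).

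Among the H2A genes, H2ac18 went from 309 and 298 CPM to 102 and 132. H2ac10 showed the lowest value of all members, from 108 and 94.6 to 16.1 and 13.8 CPM (−2.63 ± 0.08, adjusted p = 1.64e-22). The groups lay far apart for both, but only 5.69% of the 31-base words of H2ac10 are its own. Among the H2B genes, H2bc18 stood at 600 and 607 CPM in controls and at 164 and 178 after treatment (−1.70 ± 0.03). H3c15, an H3 gene of the chromosome 3 cluster, stood at 585 and 566 and then at 232 and 214 (−1.25 ± 0.03). H4c4, whose stem is GC-richer than the common form, stood at 877 and 845 and then at 285 and 292 (−1.46 ± 0.03, adjusted p = 2.84e-26). In each of these genes both treated libraries lay far below both controls.

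The members with the smallest falls were H4c1 (−0.35 ± 0.03), H3c14 (−0.66 ± 0.14), H2ac21 and H2bc21. H4c1 stood at 282 and 273 CPM in control cells and at 196 and 204 after TAK-243, so its groups were apart although its fall was small. H2bc21, one of the members without a stem-loop match, stood at 6.60 and 6.37 and then at 3.22 and 3.11 (−0.91 ± 0.21, adjusted p = 0.00027). H3c14, whose level rests on shared reads, stood at 12.6 and 12.3 and then at 6.79 and 7.78.

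Other genes of the same processes did not move as one. Of 12 tested histone genes whose symbols lie outside the name pattern, 9 were lower and 2 higher (median −1.01). H1f0, a linker histone linked to cells that have stopped dividing, was lower by a log2 fold change of −3.00 ± 0.07, and H2ax, which marks broken DNA when phosphorylated, by −1.20 ± 0.04. Of 19 genes for histone RNA processing and transcription, 11 were higher and 6 lower. Slbp was higher (0.54 ± 0.04), and so was Npat, the coactivator of histone gene transcription (1.11 ± 0.04). Of 40 genes of S phase and DNA replication, 26 were lower and 6 higher (median −0.34), and of 30 mitosis genes 10 were lower and 15 higher (median 0.10). Over all genes tested, 34% were lower and 32.3% higher. Pcna, the replication clamp, stood at −0.17. Of the RNAs that bear on library composition, Rmrp stood at 0.11 and Terc at −0.57, and Malat1, a long nuclear RNA, went from 19497 and 19737 CPM in controls to 43706 and 46193 after TAK-243 (1.32 ± 0.02). Their part in the histone values was not tested.

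**Figure D2:**
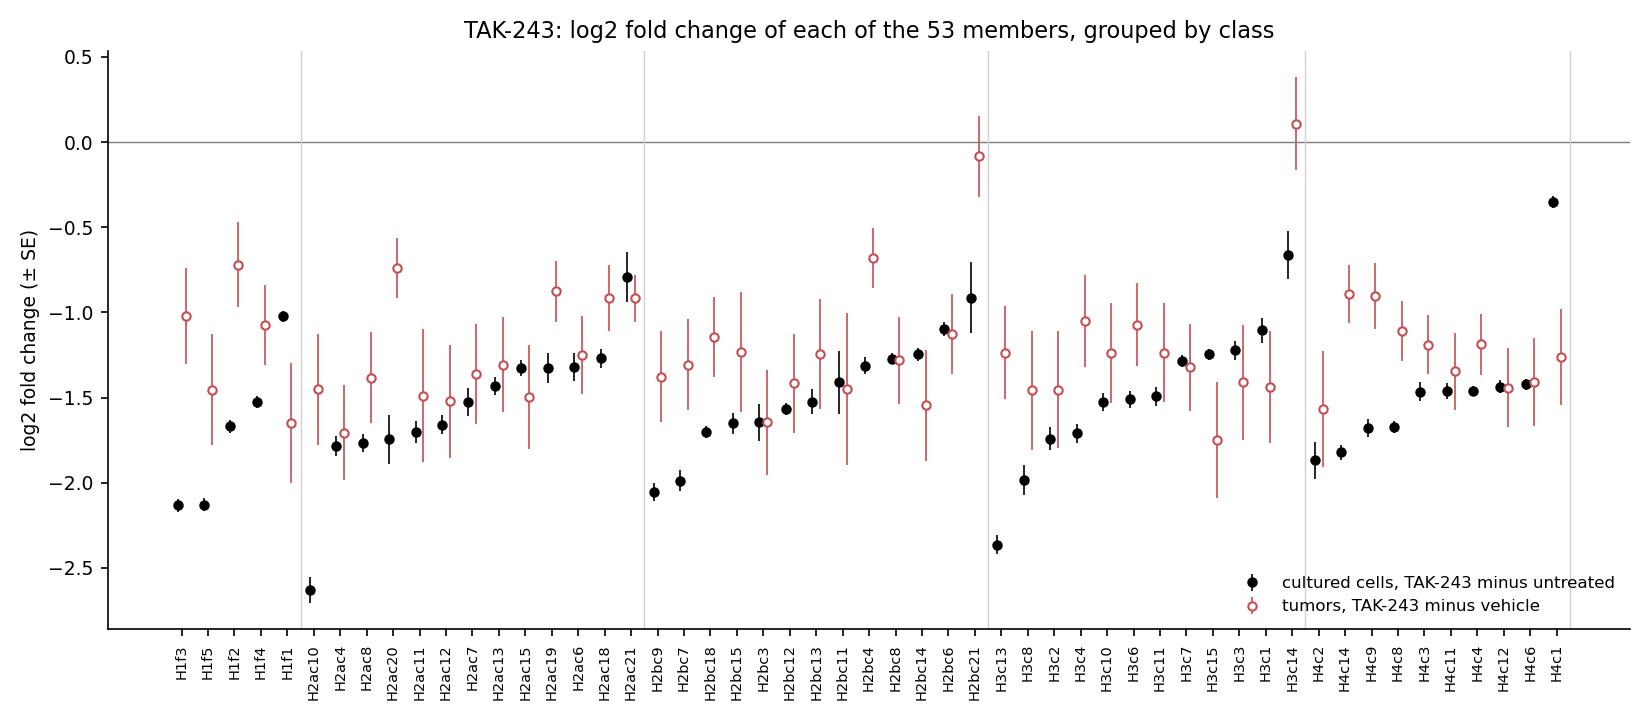
Each point is the log2 fold change of a member after TAK-243, with its standard error, for cultured Myc-CaP cells (2 libraries against 2) and for Myc-CaP tumors (5 against 6), grouped by histone class. All 53 members lie below 0 in cells, and in tumors 52 do, the exception being H3c14.

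IFN-γ alone was compared with the same controls, so the 2 contrasts share libraries. In cells without TAK-243, 51 of the 53 members rose, where 19.6% of all genes were higher. The median change was 0.61, against 0.04 for all genes, and class sums rose from 0.56 ± 0.02 (H1) to 0.66 ± 0.03 (H3). H4c4 stood at 1219 and 1216 CPM with IFN-γ against 877 and 845 in controls, and H2bc18 at 885 and 892 against 600 and 607. H3c1 had the largest rise (0.84 ± 0.06), followed by H3c3 (0.79 ± 0.05), H2ac7 (0.76 ± 0.07), H2ac21 (0.70 ± 0.12) and H3c15 (0.69 ± 0.03). The 2 members that did not pass the test were H2bc21 (0.09 ± 0.18, adjusted p = 0.764) and H3c14 (0.27 ± 0.13, adjusted p = 0.116). Of the S phase genes 19 of 40 were higher and 4 lower, where 19.6% and 9.39% of all genes were. The RNAs without a poly-A tail rose by about the median of the members: Rmrp went from 5954 and 5716 CPM to 8652 and 8720 (0.65 ± 0.03, adjusted p = 2.66e-17), and Terc rose by 0.63 ± 0.07. Their part was not tested.

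With IFN-γ present, TAK-243 lowered all 53 members, where 36.2% of genes were lower, and the median change was −1.95. The sum of all members went from 16121 and 16014 CPM to 4222 and 4083. H1f4 stood at 741 and 719 with IFN-γ and at 186 and 175 with both agents, and H4c4 at 1219 and 1216 and then at 343 and 329. The lowest values were those of H2ac10 (−3.09 ± 0.07), H3c13 (−2.65 ± 0.05), H2bc7 (−2.52 ± 0.06), H1f5 (−2.50 ± 0.03) and H3c8 (−2.49 ± 0.08). The libraries with TAK-243 differed less between IFN-γ and no IFN-γ than the libraries without it. The difference between the 2 effects of TAK-243 was tested as an interaction. It was below 0 for 43 of 53 members by adjusted p, where 2.01% of genes were, and above 0 for none, where 0.371% of genes were. For H2bc18 it was −0.49 ± 0.05 (adjusted p = 1.76e-07), for H1f4 −0.45 ± 0.05 and for H4c4 −0.36 ± 0.04. Class sums lay between −0.41 and −0.45 (SE 0.04). Rmrp had an interaction of the same size (−0.45 ± 0.04, adjusted p = 3.81e-09), and that of Terc was −0.32 ± 0.12 (adjusted p = 0.147). With IFN-γ, TAK-243 stood at −0.35 ± 0.03 for Rmrp and at −0.89 ± 0.08 for Terc. Their part was not tested.

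In the sgNC cells IFN-γ gave smaller values. Of 53 members 3 were higher, all of them H3 genes, where 3.03% of genes were higher: H3c3 (0.53 ± 0.11), H3c10 (0.42 ± 0.10) and H3c13 (0.23 ± 0.06). The median over the members was 0.16 and class sums lay between 0.10 and 0.22. H4c4 stood at 963 and 936 CPM in sgNC cells and at 897 and 864 with IFN-γ, which came to −0.04 ± 0.09 on the log2 scale once library composition was adjusted for (adjusted p = 0.832). The second sgNC library had 1885 CPM of Rmrp against 4599 in the first. Without the first sgNC library 27 members passed the test, without the second 7, and without either IFN-γ library 0. The difference from the IFN-γ effect in the TAK-243 experiment was not tested.

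In tumors, TAK-243 was compared with vehicle. The 53 members had a median log2 fold change of −1.28, a 2.43-fold lower level, against 0.01 for all genes, and 52 of 53 were below 0. The sum of all members was 2781 to 4735 CPM (median 3581) in the 6 vehicle tumors and 1125 to 2308 (median 1753) in the 5 treated tumors, with no overlap. With adjustment over 17299 genes 7 members fell, where 0.0578% of genes did (10 genes). At an unadjusted p under 0.05, 51 members were lower, where 7.66% of genes were. In 36 members every treated tumor lay below every vehicle tumor, which 0.847% of genes did.

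The 7 members were 5 H4 and 2 H2A genes. H4c4 stood at 217 to 330 CPM in vehicle tumors (330, 229, 281, 312, 249 and 217) and at 93.3, 153, 144, 91.3 and 128 in treated tumors (−1.19 ± 0.18, adjusted p = 0.0302). H4c3, which shares its stem-loop, stood at 21.4 to 36.3 and at 10.3, 15.2, 17.1, 12.9 and 11.7 (−1.19 ± 0.17, adjusted p = 0.0284). The groups did not overlap in either gene. H2ac4 had the lowest value of the 7, from 25.3 to 56.2 in vehicle tumors to 8.61, 17.9, 15.9, 6.85 and 12.4 (−1.70 ± 0.28, adjusted p = 0.047). The other 4 were H4c12 (−1.44 ± 0.23), H4c11 (−1.35 ± 0.23), H4c8 (−1.11 ± 0.18) and H2ac21 (−0.92 ± 0.14).

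Members of the other classes had values of like size with a wider spread. H3c15 stood at 127 to 215 CPM in vehicle tumors and at 30.5, 84.0, 60.3, 18.1 and 60.7 in treated tumors (−1.75 ± 0.34, adjusted p = 0.0701). H1f4 stood at 125 to 189 and at 50.1, 87.3, 81.0, 52.6 and 113 (−1.07 ± 0.23, adjusted p = 0.091). H2bc18 stood at 103 to 178 and at 47.0, 81.1, 77.0, 36.6 and 80.0 (−1.14 ± 0.23, adjusted p = 0.0841). H4c1, which had the smallest fall in cells, stood at 65.5 to 136 and at 24.9, 67.4, 47.6, 23.6 and 42.6 (−1.26 ± 0.28, adjusted p = 0.103), a value like that of the other members. Treated tumors 1 and 4 were the lowest in H4c4, H1f4 and H2bc18. Class sums lay between −1.14 and −1.24 (SE 0.20 to 0.26).

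H2bc21 and H3c14 again stood apart. Of their 31-base words, 97.2% are its own in H2bc21 and 0 in H3c14. The level of H3c14 thus rests on how shared reads were divided. H2bc21 stood at 8.999 to 23.8 CPM in vehicle tumors and at 10.01, 20.3, 12.3, 17.6 and 15.3 in treated tumors (−0.08 ± 0.24). H3c14 stood at 25.2 to 69.1 and at 36.4, 73.7, 34.3, 60.5 and 35.6 (0.11 ± 0.27). The groups overlapped throughout in both. These were the only members of the 53 with an unadjusted p of 0.05 or more.

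Other proliferation genes lay in the same direction with smaller medians. The S phase genes had a median of −0.72 and the mitosis genes of −0.72, with 0 of 40 and 0 of 30 past the adjusted threshold. Histone genes outside the name pattern had a median of −0.28 (0 of 12). Summed S phase genes ran from 1733 to 2705 CPM in vehicle tumors and from 839 to 1833 in treated tumors. Markers of leukocytes (126 to 205 against 115 to 307) and fibroblasts (539 to 1244 against 530 to 1151) overlapped between the groups, and skeletal muscle markers ran from 3.35 to 340 against 4.78 to 25.9. Markers of the prostate line were higher in treated tumors (2608 to 3939 against 1623 to 2496) without overlap. Their part in the histone values was not tested, and in a bulk tumor fewer cells of a type and less RNA per cell cannot be told apart. The count of members called moved with 1 library: it was 36 without treated tumor 5, and 0 without treated tumor 1 or 4 or vehicle tumor 1, 3, 4 or 5. It was 50 by DESeq2, which called 3.15% of all genes.

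**Figure D3:**
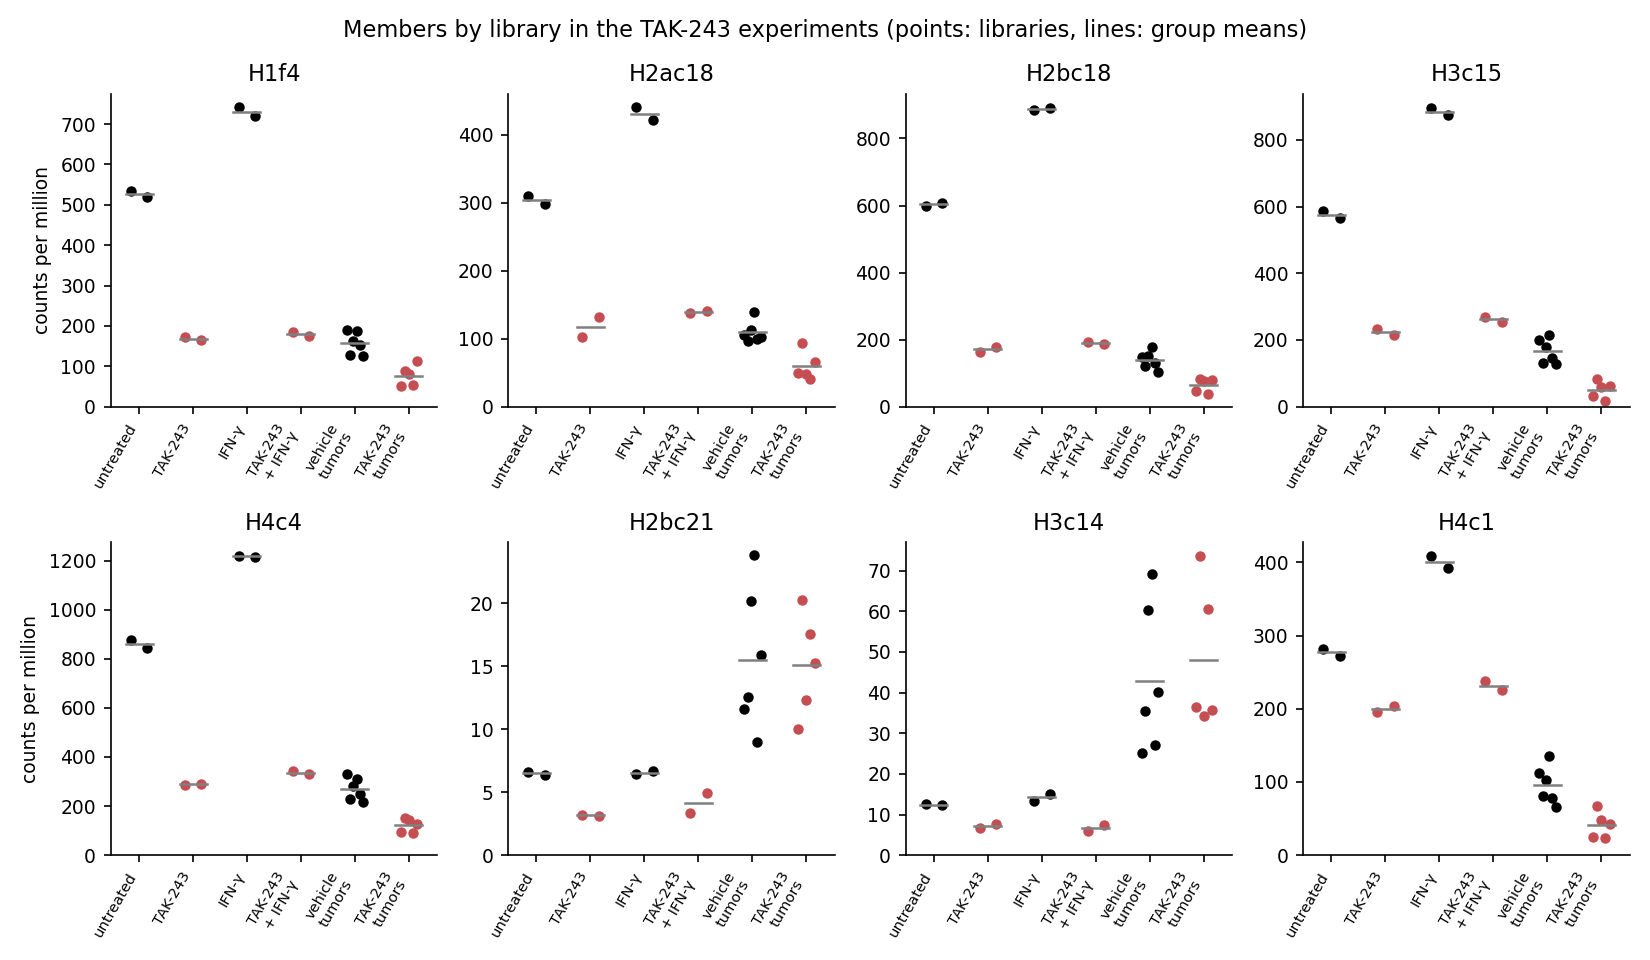
CPM of 8 members (H1f4, H2ac18, H2bc18, H3c15, H4c4, H2bc21, H3c14 and H4c1) in each library of the TAK-243 experiments in cells and in tumors, on linear axes. H4c4 falls from 877 and 845 to 285 and 292 in cells and from 217 to 330 down to 91.3 to 153 in tumors, while H2bc21 and H3c14 overlap between vehicle and treated tumors.

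The partial loss of Uba1 in cultured cells came with smaller differences than TAK-243. In sgUba1 cells 15 members were lower and 0 higher by edgeR, where 13.6% of genes were lower and 16.2% higher. At an unadjusted p under 0.05, 1 member was higher, where 21.5% of genes were, and the median was −0.15. H2bc21 had the lowest value, from 9.83 and 8.40 CPM in sgNC cells to 4.15 and 3.97 (−1.18 ± 0.14, adjusted p = 0.000104). H2ac20 went from 21.4 and 16.2 to 12.2 and 11.9 (−0.66 ± 0.11), and H4c14 (−0.45 ± 0.12) and H3c8 (−0.34 ± 0.07) were lower too. Of the linker histones, H1f3 (−0.27 ± 0.05), H1f4 (−0.18 ± 0.05) and H1f5 (−0.33 ± 0.07) were lower, and the H1 sum stood at −0.23 ± 0.05. H4c4 stood at 963 and 936 and then at 888 and 877 CPM (−0.13 ± 0.09, adjusted p = 0.317). Without the second sgNC library 31 members passed the test, and without the second sgUba1 library 7.

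With IFN-γ, 11 members were lower and 1 higher in sgUba1 cells, where 22.4% and 17% of genes were. H2bc21 stood at 10.8 and 10.9 CPM in sgNC cells and at 5.68 and 4.29 in sgUba1 cells (−1.21 ± 0.13, adjusted p = 2.95e-05). H3c13 (−0.48 ± 0.06), H3c8 (−0.47 ± 0.07), H2ac12 (−0.44 ± 0.05), H2ac20 (−0.41 ± 0.11) and H1f3 (−0.40 ± 0.05) were lower, and H2ac21 was higher (0.30 ± 0.09). The interaction of IFN-γ with sgUba1 passed for 1 member, H2bc18 (0.37 ± 0.06, adjusted p = 0.0159), where 0.663% of genes passed upward. Of the 40 S phase genes 18 were lower and 5 higher with IFN-γ, and of the 30 mitosis genes 21 were lower and 1 higher.

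In B16-BL6 tumors, 0 members were called between sgUba1 and sgNC by edgeR, where 0.724% of genes were, and DESeq2 also called 0 members, and 3.37% of genes. At an unadjusted p under 0.05, 13 were higher and 0 lower, where 8.2% and 8.11% of genes were. The median was 0.24, and 50 of 53 members were above 0. The sum of all members was 7565, 8961 and 8351 CPM in sgNC tumors and 8464, 10715, 9618 and 10969 in sgUba1 tumors, so that the lowest sgUba1 tumor lay among the controls. H4c4 stood at 489, 542 and 488 and then at 512, 624.6, 570 and 640. Class sums lay between 0.16 ± 0.10 (H4) and 0.28 ± 0.11 (H1). Leukocyte markers summed to 121 to 160 CPM in sgUba1 tumors and 76.0 to 128 in sgNC tumors, and their part was not tested.

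In Myc-CaP tumors labelled sgUba1, 0 of 53 members were called by edgeR, where 3.04% of genes were, and DESeq2 called 2, with 11.5% of genes. At an unadjusted p under 0.05, 7 were lower and 0 higher, where 10.9% and 12.7% of genes were, and the median was −0.50. The sum of all members was 3930, 2180 and 4655 CPM in sgNC tumors and ran from 1213 to 4242 (median 2198) in the tumors labelled sgUba1. The second sgNC tumor stood apart from the other controls, also in Malat1 (89243 CPM against 43814 and 49824). The 3 labelled tumors with low Uba1 summed to 3372, 4242 and 3532, between the second sgNC tumor and the others in 2 cases and between the other controls in 1. The 4 with Uba1 above the controls summed to 1988, 1213, 1748 and 2198. With those 4 left out, a choice made after the values were seen, the median was −0.03, 21 members were above 0 and 32 below, 0 were called and 3 had an unadjusted p under 0.05. With the second sgNC tumor left out as well the median was −0.32, 47 members were below 0 and 0 were called, where 1.14% of genes were. With only that tumor left out, the 7 labelled tumors had a median of −0.79, 52 members below 0 and class sums of −0.74 to −0.84, and 0 members were called, where 0.0601% of genes were. H4c4 stood at 263, 175 and 316 CPM in sgNC tumors and at 174, 246, 210, 134, 82.4, 115 and 138 in the labelled tumors, the last 4 of these being the tumors not lower in Uba1. H2bc21 stood at 20.3, 10.9 and 26.8 in sgNC tumors and at 21.04 to 32.2 in the labelled tumors, again without the direction of the other members. Of 6 leukocyte markers tested, 4 were higher in the labelled tumors, and the sum of all 8 ran from 299 to 507 CPM against 170 to 248 in sgNC tumors. Prostate-line markers were also apart (2472 to 2946 against 1637 to 2243), and fibroblast markers ran from 974 to 3059 against 785 to 1328. The part of these cells was not tested.

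In Myc-CaP tumors that overexpress Uba1, 0 members were called by edgeR, where 0.0269% of genes were (4 genes), and DESeq2 called 3, with 4.76% of genes. At an unadjusted p under 0.05, 25 were higher and 2 lower, where 10% and 8.15% of genes were. The median was 0.49. The sum of all members was 3178, 3474 and 3289 CPM in EV tumors and 5706, 4785, 3029 and 3984 in OE tumors, with 1 OE tumor below the controls and 3 above. H4c4 stood at 202, 210 and 209 in EV tumors and at 484, 347, 223 and 274 in OE tumors, without overlap. H3c14 ran the other way, at 70.8, 58.3 and 68.8 in EV tumors and at 5.83, 31.1, 29.7 and 46.6 in OE tumors, and so did H2bc21 at 24.1, 22.5 and 21.5 and then at 5.74, 16.2, 10.2 and 16.4. These were the 2 members below all controls, where 11.8% of genes were, and 5 members were above all controls, where 6.32% were. The level of H3c14 rests on how shared reads were divided. Mitosis genes had a median of 0.57 and S phase genes of 0.32, none past the threshold. Skeletal muscle markers summed to 3.57 to 455 CPM in OE tumors and 3.65 to 4.82 in EV tumors. Prostate-line markers were lower in every OE tumor (1202 to 2196) than in every EV tumor (2253 to 2588), and leukocyte markers ran from 69.8 to 307 against 245 to 305. Their part was not tested.

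The effects were also set against each other, as differences between experiments in the 5 class sums. B16-BL6 minus Myc-CaP tumors labelled sgUba1 gave 0.66 to 0.83 (SE 0.34 to 0.39), TAK-243 in tumors minus cells 0.14 to 0.48 (SE 0.38 to 0.44), and Myc-CaP tumors labelled sgUba1 minus sgUba1 cells −0.32 to −0.54 (SE 0.40 to 0.46). Of these 15 differences 0 passed edgeR's test after adjustment, and 2, those of the H1 and H3 sums between B16-BL6 and Myc-CaP, had an unadjusted p under 0.05. With the 4 Myc-CaP tumors not lower in Uba1 left out, chosen after the values were seen, the first of these ran from 0.20 to 0.34 (SE 0.31 to 0.35) and the last turned from below to above 0, at 0.02 to 0.19 (SE 0.36 to 0.41), with no p under 0.05 before adjustment.

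The 2 lines expressed different members of the clusters. Of the 53, 16 lay below all 28 Myc-CaP tumors in each of the 7 B16-BL6 tumors and 32 lay above all of them, where 13.6% and 18.9% of genes did. The lines also differ in mouse strain, sex of host, site of origin and experiment, which cannot be told apart, so no test is given. In all B16-BL6 tumors 16 members stayed under 10 CPM, not wholly the same 16, and of these, 10 were neighbours on chromosome 13 (chr13:21715763-21783370, from H2bc13 to H3c11, 67.608 kb). They stood at 0.252 to 6.72 CPM in B16-BL6 tumors and at 5.79 to 193 in Myc-CaP tumors. A further 3 neighbours, H2bc7, H2ac7 and H3c4 (chr13:23573736-23577011), stood at 0.392 to 2.69 against 7.68 to 68.9. The remaining 3 were single members among expressed ones: H3c2 at 2.37 to 5.68 against 4.31 to 47.4, the only one of the 16 whose ranges overlapped, H1f1 at 1.53 to 5.44 against 15.7 to 271, and H3c14 on chromosome 3 at 0.465 to 1.63 against 5.83 to 125. H1f1 is read almost wholly from words of its own, so its level does not hang on shared reads, whereas that of H3c14 does.

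Other members were higher in B16-BL6. H2bc11 stood at 111, 148, 126, 132, 153, 141 and 181 CPM in the 7 tumors against 0.300 to 6.73 in Myc-CaP tumors, a ratio of medians of 50.3. H2ac20 (ratio 47.5), H2bc3 (43.0), H4c2 (30.2) and H4c3 (14) followed. H2ac20 stood at 168 to 263 against 1.97 to 8.10. In cultured Myc-CaP cells H2bc11 stayed between 3.08 and 18.6 CPM, also below every B16-BL6 tumor. The H4 class sum was 2157 to 2839 in B16-BL6 and 331 to 1557 in Myc-CaP tumors. The other 4 classes did not overlap either, but their gaps differed. For H1 the lowest B16-BL6 tumor (1067.83 CPM) barely passed the highest Myc-CaP tumor (1066.99 CPM). For H3 these values were 1091 and 1014.

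**Figure D4:**
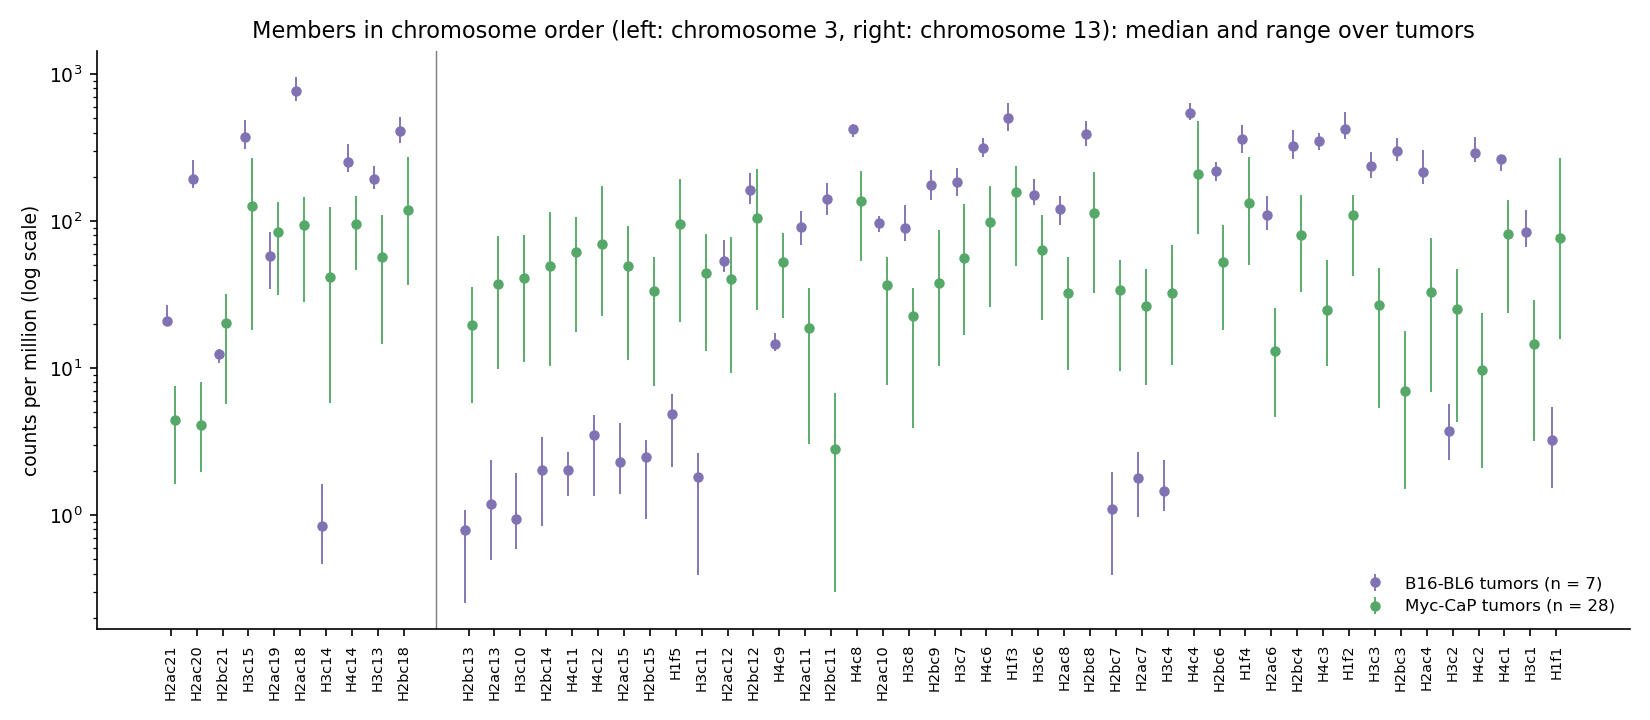
Members are placed in their order along chromosomes 3 and 13, with the median and range of CPM over 7 B16-BL6 tumors and over 28 Myc-CaP tumors on a log axis. The run of 10 neighbours from H2bc13 to H3c11 stands at 0.252 to 6.72 CPM in B16-BL6 and at 5.79 to 193 in Myc-CaP.

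Across the 51 libraries, the genes outside the clusters whose level followed the summed members most closely were H2ax (Spearman correlation 0.973), Pold1, a DNA polymerase delta subunit (0.970), Fbxo5, an inhibitor of the anaphase-promoting complex (0.966), Rrm2, a ribonucleotide reductase subunit (0.955), and 4930579G24Rik (0.950), among 9682 genes compared. The libraries share lines, experiments and depth, so the correlations are descriptions.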

How the data were processed

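Expected counts per gene were estimated by the authors with kallisto on mm10, per the submitters' processing notes, and deposited with TPM values for 51 libraries. The expected counts were rounded and tested in edgeR 4.0.16 (R 4.3.3) with a quasi-likelihood fit after TMM scaling and edgeR's expression filter, with Benjamini-Hochberg adjustment over all genes and a threshold of 0.05. Each tumor experiment was fitted alone, and each cell experiment with its 4 groups together. DESeq2 1.42.0 and limma 3.58.1 (on log2 of the deposited TPM plus 1 or plus 0.1) were alternatives. Levels are CPM, taken over the library's total count without TMM scaling. Class sums replaced their members in the same fit and are given as values with SE, because members and lists were chosen with earlier results of these data known. Stem-loops and 31-base words came from GENCODE M21 and promoters from RefSeq. The tests were checked on simulated counts. Members named are the highest of each class and, in each comparison, those that changed most past the threshold, and H2bc21, H3c14 and H4c1 were also chosen after their values were seen. Same-numbered libraries did not deviate together (correlations −0.179 to 0.315), so numbers were not taken as pairs. Depth was 8651963 to 38032284 counts per library.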

Additional observations from a re-analysis of the deposited data

Results flagged for a closer look

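The effect of TAK-243 in cells differed with IFN-γ in all 5 histone class sums, by the interaction term of the edgeR fit. The interaction was −0.41 ± 0.04 for the H1 sum, −0.44 ± 0.04 for H2A, −0.45 ± 0.04 for H2B, −0.43 ± 0.04 for H3 and −0.42 ± 0.04 for H4 (log2, SE), the fall being larger with IFN-γ. Each group behind it had 2 libraries. Of 50 tests for a single tumor far from the rest of its group, in a class sum or in the highest member of a class, 0 stood out, where chance gives about 5%. The cell groups and the sgNC and EV tumor groups were too small for this test.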

How the results depend on the processing

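The falls of the members after TAK-243 in cells and their rises with IFN-γ in cells without TAK-243 hardly moved, with 52 to 53 and 46 to 51 members called under every alternative run, and B16-BL6 sgUba1 tumors stayed at 0. For TAK-243 in tumors (7 members called) the count was 50 by DESeq2, 15 without the filter on low counts, 0 with at least 10 counts in every library and 0 to 36 with 1 tumor left out. For sgUba1 cells (15) it was 3 by limma on log2(TPM + 1) and 7 to 31 with 1 library left out. For sgUba1 cells with IFN-γ (12) it was 28 without the filter, 27 with the 4 libraries compared alone and 7 to 17 with 1 left out. For IFN-γ in sgNC cells (3) it was 19 without the filter, 1 by DESeq2, 1 with RLE scaling, 0 by limma, 0 with at least 10 counts in every library, 0 with the 4 libraries alone and 0 to 27 with 1 left out. For Myc-CaP tumors labelled sgUba1 (0) it was 2 by DESeq2, 1 with 17 tumors in 1 fit and 0 to 1 with 1 left out, and for OE tumors (0) it was 3 by DESeq2 and 0 to 1. The causes of these shifts were not tested.

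Of the 5 class sums, the number past the threshold for TAK-243 in tumors (0) was 5 by DESeq2, 1 by limma on log2(TPM + 0.1) and 0 to 5 with 1 tumor left out. For sgUba1 cells (1) it was 2 by DESeq2, 2 with RLE scaling, 0 by limma with either pseudocount and 0 to 5 with 1 library left out. For sgUba1 cells with IFN-γ (2) it was 0 by limma with either pseudocount and 0 to 1 with 1 left out, and for IFN-γ in sgNC cells (0) it was 1 by DESeq2 and 0 to 4. Some small sums changed sign with 1 library left out: for IFN-γ in sgNC cells the H2B sum ran from −0.0173 to 0.2528 and the H4 sum from −0.0605 to 0.2757, both lowest without the second sgNC library. For sgUba1 cells the H4 sum ran from −0.3306 to 0.0052, the latter without the first sgNC library. With IFN-γ the H2B sum ran from −0.0211 (without the second sgNC library; −0.0062 without the first sgUba1 library) to 0.0435, and the H4 sum from −0.0501 (without the first sgUba1 library) to 0.2073.

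With the replicate number as a block the samples share only a number. The block gave 0 members for TAK-243 in tumors, 8 for IFN-γ in sgNC cells, 19 for sgUba1 cells and 17 for those with IFN-γ, and 1, 3 and 3 class sums for the last 3 in turn. In Myc-CaP tumors labelled sgUba1 the block turned the H2A sum to 0.0235 and the H2B sum to 0.0537, and it changed no other direction. In none of the 4 tumor comparisons did every library correlate best with its own number, while in 5 of the 6 cell comparisons, with 2 numbers each, they did. With 2 libraries centred on their group mean, that outcome is only the sign of a single correlation. In those 5 comparisons it ran from 0.00872 to 0.0692, so it cannot show pairing.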
